A study of Ovis aries and Bos taurus with 15 samples.

Results

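Mitosis is the step in which a cell condenses its copied chromosomes, attaches them to a spindle of microtubules and pulls the sister copies apart. Cyclin-dependent kinase 1 with its A and B type cyclins starts the process, and the spindle checkpoint holds it until every kinetochore, the protein plate on each centromere, is attached to microtubules. The anaphase-promoting complex with CDC20 then marks securin and cyclin B for destruction, sister chromatids part, and the cell divides in cytokinesis. Most of these genes are transcribed in G2 and M phase, so their RNA is low in cells that are not dividing, and cultured endothelial cells divide in serum.

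The genes described here are 57 genes of mitosis and the spindle: cyclins and the activators of CDK1, mitotic kinases, checkpoint proteins, anaphase and cohesion factors, kinetochore proteins, spindle motors and microtubule proteins, cytokinesis factors and condensin. They were taken as the probe sets to which the platform annotation gives exactly 1 gene symbol, where that symbol was on the list. Of the 57 genes, 43 were measured this way, by 62 of the 24016 probe sets tested. The other 14 were CDC25B, NEK2, TTK, PTTG1, CENPE, CENPK, NUF2, SPC25, KIF11, DLGAP5, PRC1, ANLN, RACGAP1 and SMC2, and no value is given for them. A gene with several probe sets, as 14 of the 43 had, is represented by the one with the highest mean over the 15 arrays.

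The study hybridised RNA of cultured endothelial cells to bovine arrays made by Affymetrix, with 5 samples in each of 3 groups and a single array for each sample. The bovine group was cells labelled BAEC, named as control with no agent given. The ovine groups were cells labelled PAEC that received the vehicle DMSO or GW9662 at 5 µM for 24 h. GW9662 blocks PPARγ, a lipid-sensing nuclear receptor, by binding it covalently. All cells were grown in DMEM with 10% FBS, and the title sets the work in pulmonary hypertension. Nothing in the labels says whether the 5 samples of a group were separate cultures or animals, and the p-values measure only the spread between these samples, which may be technical. The effect of GW9662 was asked by setting it against vehicle. Bovine control against ovine vehicle differs in species, cell source and vehicle at once, and these cannot be told apart.

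Values are log2 expression values, and folds are given beside some log2 differences. A probe set called changed here had a limma p-value under 0.05 after Benjamini-Hochberg adjustment over all 24016 probe sets, and each comparison was fitted on its own 10 arrays. Both comparisons use the same vehicle arrays. The median over all probe sets lay between 3.18 and 3.27 on every array. Over the named genes vehicle replicate 1 had the lowest median, 5.50, against 5.68 to 5.75 on the other vehicle arrays. The endothelial genes PECAM1 and CDH5 were bright in both species. Of 13 endothelial genes measured, VWF had a mean under 3 in all 3 groups, CLDN5 in both ovine groups and KDR on vehicle. KDR averaged 2.64 with vehicle and 3.79 with GW9662 and was not called (limma adjusted p = 0.217). Of the 13, 2 had a positive difference with GW9662, against 39.3% of named genes, and the median was -0.10. At an unadjusted limma p under 0.05, 1 was higher and 4 were lower, against 7.68% and 12.5% of named genes. Of the other cell types' marker genes, all 6 epithelial and all 5 erythroid and platelet genes measured had means under 3 in every group, as did 5 of 7 smooth muscle genes and 5 of 7 fibroblast genes. None of the marker genes of any of these types was called with GW9662. Among leukocyte genes, 5 of 6 were under 3 in the ovine groups and 6 of 6 in the bovine group.

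Most of the mitotic genes were well inside the range of the arrays. Averaged over the 15 arrays, 36 of the 43 had a mean of 5 or more, which is 83.7% against 55.7% of the 9155 named genes. SGO2, CCNF, ESPL1 and KIF2C lay between 3 and 5. CDC25C, CENPA and KIF18A lay under 3, where a value does not show whether the gene is expressed, and their differences are given without a direction of expression.

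With GW9662, 3 mitotic genes rose and none fell: the A type cyclin CCNA2, the shugoshin SGO2 and the spindle protein HMMR. The 3 called genes of 43 compare with 0.142% of the 9155 named genes called higher and 0.0765% called lower. By probe set, 4 of 62 were called higher and 0 lower, against 0.146% of all probe sets called higher and 0.0375% called lower. Most of the other members had positive differences that did not pass the threshold: 38 of 43 had a positive difference, against 39.3% of named genes, and the members' median was 0.28 against -0.015. At an unadjusted p under 0.05, 20 members were higher, against 7.68% of named genes, and 1 was lower, CENPA, against 12.5%. The 5 GW9662 arrays lay wholly above the 5 vehicle arrays in 11 members, against 1.9% of named genes, and wholly below them in 1, KIF18A at the floor, against 9.71%. Among members of mean 5 or more, a division chosen after their values were seen, 34 of 36 were positive, against 54% of named genes that bright. In RNA of whole cultures, a different number of dividing cells and a different amount of these RNAs per cell cannot be told apart.

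The call count rested on single arrays. With any 1 of vehicle replicates 2, 4 or 5 or of GW9662 replicates 1 to 5 left out, CCNA2 alone of the 43 genes passed the threshold, whereas 4 genes passed without vehicle replicate 1 (CCNA2, HMMR, CENPN and NUSAP1) and 3 without vehicle replicate 3 (CCNA2, SGO2 and NUSAP1). Vehicle replicate 1, whose median over named genes stood apart, also set the lowest members' median, 0.21 without it. On 6 control transcripts, the gap between 3′ and 5′ probe sets, a measure of RNA integrity and labelling, also moved with the groups. It was 1.18 ± 0.085 on the vehicle arrays and 0.956 ± 0.074 on the GW9662 arrays (SD, n = 5 each), and the lowest vehicle array, at 1.07, was above the highest GW9662 array, at 1.04. With that difference as a covariate 0 of 43 genes and 0 of all probe sets passed. Of the 43 genes, 8 had an unadjusted p under 0.05, and the members' median was 0.20. Because the gap did not overlap between these groups, it and GW9662 cannot be told apart by this fit. The part of the gap in the result was not tested.

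**Figure D1:**
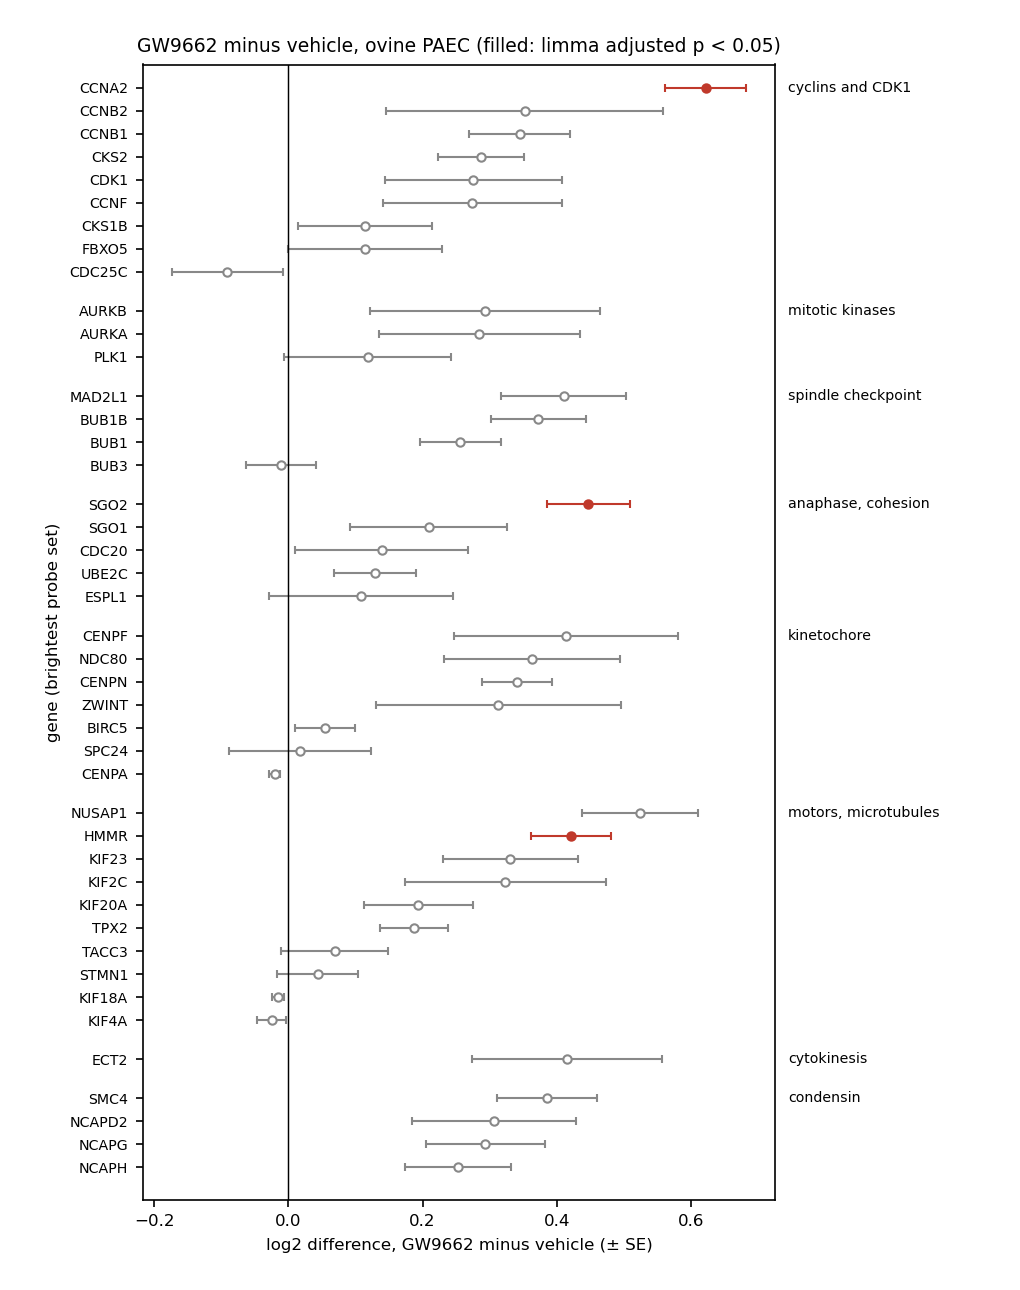
Log2 difference, GW9662 minus vehicle, of the 43 measured mitotic genes by role, with the standard error as bars (5 arrays against 5) and filled points where the limma adjusted p was under 0.05. The filled points are CCNA2, SGO2 and HMMR, 38 of the 43 points lie right of 0, and the highest is CCNA2 at 0.62.

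Among the cyclins and the activators of CDK1, 1 of 9 measured genes rose and 3 were higher at an unadjusted p under 0.05, with a median difference of 0.28. Beside the counts of this role and those below, 0.142% of named genes were called higher and 7.68% were higher at an unadjusted p under 0.05. CCNA2 encodes cyclin A2, which drives both S phase and entry into mitosis. Its vehicle arrays read 5.26, 5.34, 5.35, 5.21 and 5.38, and its GW9662 arrays 6.09, 5.90, 6.02, 5.84 and 5.79. The highest vehicle array, at 5.38, was below the lowest GW9662 array, at 5.79. The mean went from 5.31 ± 0.070 to 5.93 ± 0.12 (SD, n = 5), a difference of 0.62 (SE 0.061, n = 5 and 5, limma adjusted p = 0.0111), or 1.54-fold. CCNA2 stayed past the threshold with each of the 10 arrays left out in turn.

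CCNB1, the B type cyclin that carries CDK1 into mitosis, read 7.34, 7.38, 7.63, 7.56 and 7.65 with vehicle and 7.87, 7.76, 8.01, 7.88 and 7.76 with GW9662. Those groups did not overlap, but the difference of 0.34 (SE 0.075, adjusted p = 0.135) missed the threshold. CKS2, a small subunit that binds CDK1, behaved likewise, at 0.29 (SE 0.064, adjusted p = 0.141) with no overlap. CDK1 itself read 8.51, 8.20, 8.14, 8.70 and 8.66 with vehicle and 8.63, 8.46, 8.83, 8.78 and 8.90 with GW9662, groups that overlapped, with a difference of 0.28 (SE 0.13, adjusted p = 0.248). CCNB2, the second B type cyclin, read 5.52, 6.68, 6.56, 6.57 and 6.49 with vehicle and 6.76, 6.66, 6.86, 6.64 and 6.65 with GW9662. Its first vehicle array lay far below the other 4, the groups overlapped otherwise, and the difference was 0.35 (SE 0.21, adjusted p = 0.296). With the 3′ to 5′ covariate the CCNB2 difference turned negative, to -0.15.

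None of the 3 measured mitotic kinases had an unadjusted p under 0.05. The difference was 0.12 (SE 0.12, adjusted p = 0.516) for PLK1, which acts at centrosomes, kinetochores and in cytokinesis. It was 0.28 (SE 0.15, adjusted p = 0.267) for AURKA, the kinase of centrosomes and spindle poles, which turned to -0.039 with the covariate. AURKB, the kinase of the chromosomal passenger complex that corrects faulty attachments, read 6.04, 5.85, 6.15, 6.47 and 6.66 with vehicle and 6.41, 6.37, 6.93, 6.49 and 6.42 with GW9662. A single GW9662 array was high and the remaining arrays overlapped with vehicle, for a difference of 0.29 (SE 0.17, adjusted p = 0.293).

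In the spindle checkpoint, 0 of 4 genes were called, and 3 of the 4 had GW9662 arrays wholly above the vehicle arrays, against 1.9% of named genes. BUB1B, the checkpoint protein BubR1 that binds and restrains CDC20, read 7.58, 7.94, 7.76, 7.78 and 7.89 with vehicle and 8.04, 8.29, 8.18, 8.18 and 8.14 with GW9662. Every GW9662 array was above every vehicle array, and the difference was 0.37 (SE 0.071, adjusted p = 0.109). MAD2L1, which sequesters CDC20 while a kinetochore is unattached, read 6.92, 6.91, 7.07, 7.36 and 7.21 with vehicle and 7.44, 7.41, 7.66, 7.56 and 7.47 with GW9662, without overlap and with a difference of 0.41 (SE 0.093, adjusted p = 0.149). BUB1, the kinase that recruits the others to kinetochores, differed by 0.26 (SE 0.060, adjusted p = 0.165). BUB3, which anchors both BUB1 and BUB1B and is expressed through the whole cell cycle, differed by -0.011 (SE 0.052, adjusted p = 0.889), with groups that overlapped.

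Among 5 genes of anaphase and cohesion, SGO2 rose. Shugoshin 2 is a centromere protein of the family that shields cohesin from cleavage. Its vehicle arrays read 3.89, 3.90, 4.19, 3.99 and 3.98 and its GW9662 arrays 4.36, 4.41, 4.53, 4.38 and 4.51. The groups were apart, with means of 3.99 ± 0.12 and 4.44 ± 0.076 (SD, n = 5) and a difference of 0.45 (SE 0.061, n = 5 and 5, limma adjusted p = 0.0439). It passed with vehicle replicate 3 left out and with none of the other 9 arrays left out. CDC20, the activator of the anaphase-promoting complex, read 6.87, 7.28, 7.07, 6.49 and 6.97 with vehicle and 7.21, 7.07, 7.10, 6.97 and 7.03 with GW9662. Those groups overlapped, and the difference of 0.14 (SE 0.13, adjusted p = 0.465) was the size of its error.

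**Figure D2:**
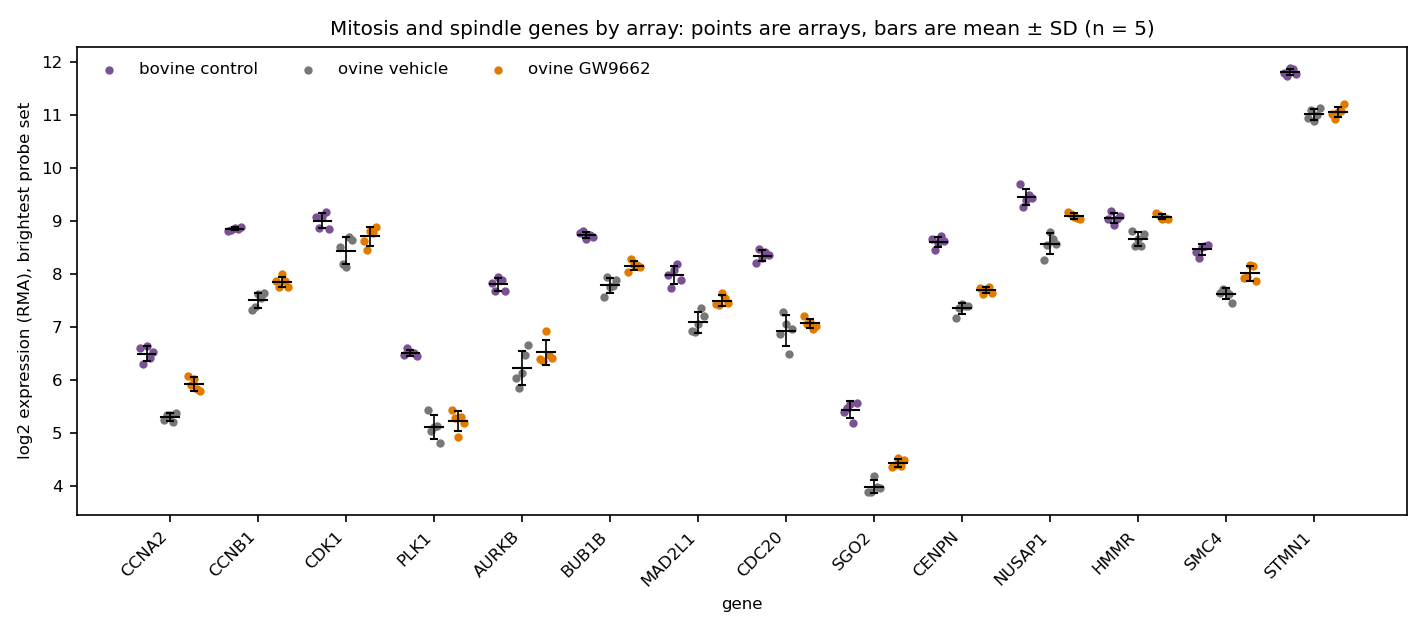
Log2 value on each of the 15 arrays for 14 of the mitotic genes, with 1 point per array, a colour per group and a bar at each group mean. CCNA2 and SGO2 show the GW9662 arrays apart from vehicle, CDC20 and CDK1 show them mixed, and the bovine arrays lie above both ovine groups in most genes.

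Of 7 kinetochore and centromere genes 0 were called. CENPN, which binds the nucleosomes that carry CENPA, read 7.17, 7.37, 7.44, 7.41 and 7.40 with vehicle and 7.74, 7.62, 7.72, 7.75 and 7.65 with GW9662. The groups did not overlap, and at 0.34 (SE 0.052, n = 5 and 5, limma adjusted p = 0.0526) it was just short of the threshold. NDC80, the subunit that grips the microtubule, differed by 0.36 (SE 0.13, adjusted p = 0.217), and CENPF, a large outer kinetochore protein, by 0.41 (SE 0.17, adjusted p = 0.222). BIRC5, or survivin, of the chromosomal passenger complex, differed by 0.054 (SE 0.044, adjusted p = 0.414), and by -0.013 after quantile normalisation. CENPA, the histone that marks centromeres, differed by -0.021 (SE 0.0085, adjusted p = 0.223) at a level under 3, and by 0.022 after median centring and 0.010 after quantile normalisation.

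Among 10 spindle motors and microtubule proteins, HMMR was called and 5 had an unadjusted p under 0.05. HMMR binds microtubules and hyaluronan and helps focus spindle poles. Its brightest probe set read 8.82, 8.54, 8.66, 8.54 and 8.77 with vehicle and 9.15, 9.13, 9.04, 9.07 and 9.05 with GW9662. All 5 GW9662 arrays were above all 5 vehicle arrays, for a difference of 0.42 (SE 0.059, n = 5 and 5, limma adjusted p = 0.0439), or 1.34-fold. A dimmer HMMR probe set read 5.21, 5.41, 6.09, 5.84 and 5.75 with vehicle and 6.90, 7.02, 6.82, 6.61 and 7.001 with GW9662. It also rose, by 1.21 (SE 0.16, n = 5 and 5, limma adjusted p = 0.0439), or 2.32-fold, so the 2 probe sets gave the same direction and different sizes. A further probe set differed by 0.66 (SE 0.18, adjusted p = 0.212), and the last 2 of its 5 probe sets were near the floor. HMMR's brightest probe set passed in 1 of the 10 runs that left out an array, that without vehicle replicate 1, and the dimmer one in 2, those without vehicle replicates 1 and 3.

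NUSAP1, which bundles spindle microtubules, read 8.27, 8.55, 8.80, 8.67 and 8.58 with vehicle and 9.17, 9.14, 9.09, 9.05 and 9.04 with GW9662, with no overlap and a difference of 0.52 (SE 0.087, n = 5 and 5, limma adjusted p = 0.0699). TPX2, the activator of AURKA on the spindle, differed by 0.19 (SE 0.051, adjusted p = 0.208). STMN1, or stathmin, which destabilises microtubules in many cell states, differed by 0.044 (SE 0.061, adjusted p = 0.627). The cytokinesis factor ECT2, which activates RhoA at the division plane, differed by 0.42 (SE 0.14, adjusted p = 0.217).

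All 4 measured condensin subunits, which compact chromosomes, had an unadjusted p under 0.05 and 0 were called. On the brightest probe sets their differences ran from 0.25 to 0.39. NCAPH, at 0.25 on that probe set, differed by -0.070 (SE 0.15) and -0.12 (SE 0.10) on its dimmer ones. SMC4, the core ATPase of both condensins, read 7.65, 7.73, 7.68, 7.63 and 7.46 with vehicle and 7.92, 7.95, 8.17, 8.16 and 7.87 with GW9662, with no overlap and a difference of 0.39 (SE 0.074, adjusted p = 0.112). A dimmer SMC4 probe set differed by 1.03 (SE 0.22, adjusted p = 0.127). NCAPG, a regulatory subunit of condensin I, differed by 0.29 (SE 0.089, adjusted p = 0.217).

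**Figure D3:**
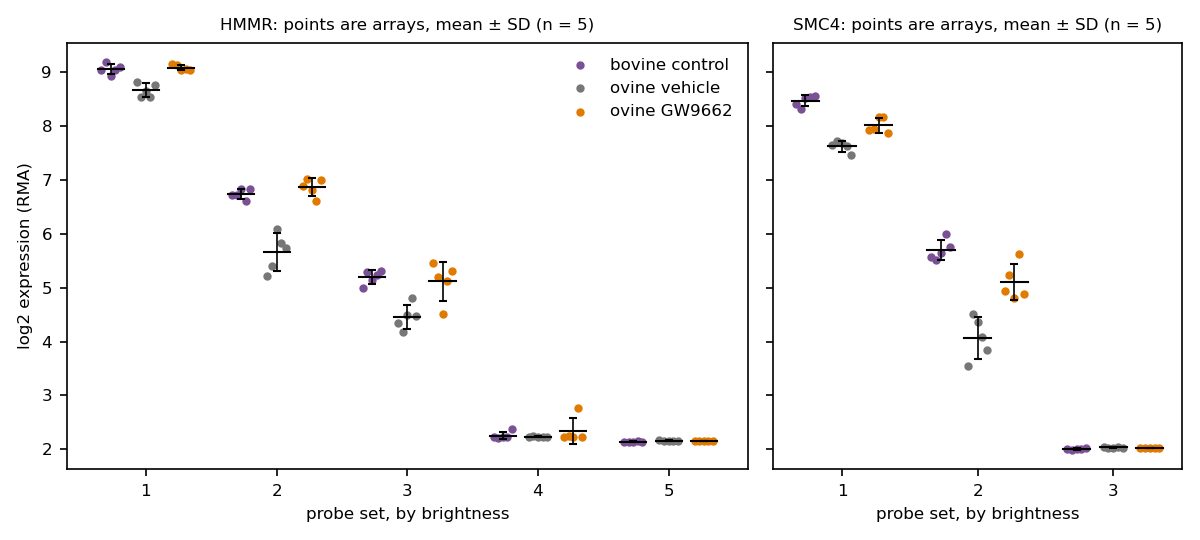
Log2 value on each of the 15 arrays for the 5 probe sets of HMMR and the 3 of SMC4, ordered by brightness, with 1 point per array, a colour per group and bars for the group mean ± SD. Within each gene the log2 differences, GW9662 minus vehicle, of the probe sets above the floor are positive and differ in size, from 0.42 to 1.21 for HMMR.

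The other genes of division were counted beside the members, and at an unadjusted p under 0.05 the shares over all named genes were 7.68% higher and 12.5% lower. Of 22 further mitotic regulators, 0 were called with GW9662, 5 had an unadjusted p under 0.05 and were higher, 1 was lower, and the median was 0.14. ASPM, a spindle pole protein, differed by 0.57 (SE 0.14, adjusted p = 0.169). Of 30 genes of DNA replication and S phase 0 were called, 5 had an unadjusted p under 0.05 and all 5 were higher, with a median of 0.10. CCNE2, the E type cyclin of S phase entry, differed by 0.36 and TYMS, which makes thymidylate, by 0.29. Among 12 genes listed for the anaphase-promoting complex, which include UBE2S, the median was 0.03 and 3 were lower at an unadjusted p under 0.05. Among 4 cohesin genes the median was 0.05. Of 9 inhibitors and arrest genes 0 were called, 6 had a positive difference, and the median was 0.12. Before adjustment the limma p was below 0.05 for CDKN1C (0.29), RB1 (0.27), CDKN2C (0.20) and GADD45B (-0.16). CDKN1A, or p21, ran against most of this list, at -0.15 (SE 0.084, adjusted p = 0.288).

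In the bovine control, 39 of the 43 measured mitotic genes were higher than in ovine vehicle, 1 was lower, and 3 were not called. The background was large: 45.2% of all probe sets were called in either direction, and 21.9% of named genes were called higher and 27.4% lower. Among members of mean 5 or more, 35 of 36 were called higher, against 33.1% of named genes that bright. The members' median difference was 0.95, against -0.022 for named genes. In 37 members the bovine arrays lay wholly above vehicle, against 17.8% of named genes, and in 2 wholly below, CENPA and KIF18A at the floor, against 33%. Sheep RNA was hybridised to a bovine array, so a difference in expression and a difference in match to the probes cannot be told apart. With the 3′ to 5′ difference as a covariate 16 of 43 genes were called higher and 0 lower. Of all 24016 probe sets, 574 were then called higher and 1027 lower. The 3′ to 5′ difference was 0.881 ± 0.043 (SD, n = 5) on the bovine arrays. Its highest bovine value, 0.942, was below the lowest vehicle value, 1.07, so it and the group cannot be told apart by this fit. The split of all calls moved with the scaling, from 3740 higher and 7120 lower to 3740 and 2715 after median centring and 3224 and 3578 after quantile normalisation, while 40 and 38 of the 43 members were then called higher and 0 lower.

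Markers of endothelial and other cell types also differed between these groups. Of 13 endothelial genes, 6 were called higher in bovine cells and 3 lower, against 21.9% and 27.4% of named genes. The mean of the 6 leukocyte genes ran from 2.32 to 2.39 on bovine arrays and from 3.10 to 3.18 on vehicle, where CD14 averaged 6.69 ± 0.17 against 2.27 ± 0.052 (SD, n = 5) and the defining gene PTPRC was under 3 in both. The mean of the 7 smooth muscle genes ran from 3.66 to 3.80 on bovine arrays and from 3.12 to 3.31 on vehicle. TAGLN was called higher in bovine cells, by 1.83, and SMTN by 1.27. ACTA2 and MYH11 were under 3 in both groups, and MYH11 was the 1 gene of this list called lower. The mean of the 7 fibroblast genes ran from 4.89 to 4.96 on bovine arrays and from 4.76 to 4.80 on vehicle, with PDGFRA and DCN under 3. COL1A2 was called higher in bovine cells, by 0.91, and COL3A1, at -0.028, was not called. In all 2 fibroblast genes were called higher and 3 lower, and those other than COL1A2 had means under 3 in both groups. The part of these marker differences in the result was not tested.

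**Figure D4:**
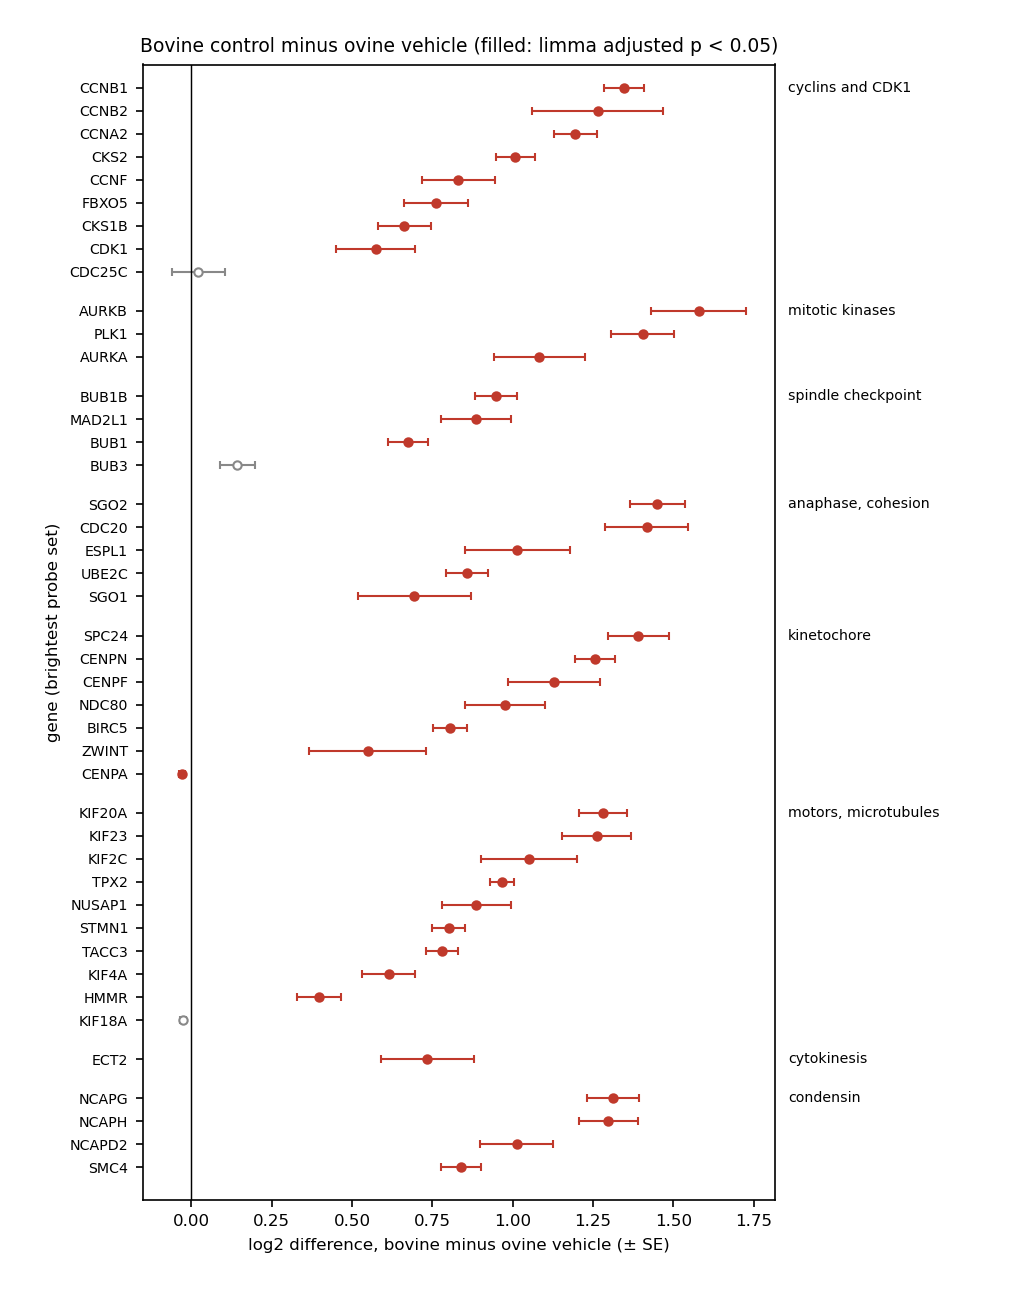
Log2 difference, bovine control minus ovine vehicle, of the 43 measured mitotic genes by role, with the standard error as bars (5 arrays against 5) and filled points where the limma adjusted p was under 0.05. Every role has a positive median, and the largest differences, from AURKB at 1.58 down to NCAPH at 1.30, are spread over several roles.

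The mitotic kinases had the largest median of any role with over 1 gene, 1.40, and all 3 were called. AURKB read 7.84, 7.69, 7.95, 7.89 and 7.69 on the bovine arrays and was higher by 1.58 (SE 0.15, n = 5 and 5, limma adjusted p = 4.16e-05), or 2.99-fold. PLK1 read 6.48, 6.60, 6.53, 6.52 and 6.45 on the bovine arrays against 5.45, 5.04, 5.12, 5.14 and 4.82 on vehicle, and was higher by 1.40 (SE 0.10, adjusted p = 5.94e-06). AURKA was higher by 1.08. The bovine arrays were above every vehicle array for all 3 kinases.

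Called genes of the other roles were higher by 0.40 to 1.45, apart from CENPA. Of the cyclins and CDK1 activators 8 of 9 were higher, with CCNB1 at 1.35 (SE 0.063, adjusted p = 3.70e-07), CCNB2 at 1.26 and CDK1 at 0.57. CDC20 read 8.22, 8.47, 8.30, 8.42 and 8.36 on the bovine arrays and was higher by 1.42 (SE 0.13, adjusted p = 3.53e-05), and SGO2 by 1.45 (SE 0.085, adjusted p = 1.90e-06). Both lay among all 5 anaphase and cohesion genes called higher. SPC24, a subunit of the NDC80 complex, read 8.53, 8.89, 8.70, 8.58 and 8.77 on bovine arrays and 7.15, 7.49, 7.38, 7.09 and 7.40 on vehicle. It was higher by 1.39 (SE 0.10, adjusted p = 5.14e-06), with NDC80 at 0.98, CENPF at 1.13 and BIRC5 at 0.81.

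All 4 condensin subunits were higher, NCAPG by 1.31 (SE 0.081, adjusted p = 2.61e-06) and NCAPH by 1.30 (SE 0.092, adjusted p = 6.40e-06). Among motors and microtubule proteins 9 of 10 were higher, including TPX2 at 0.97 and STMN1 at 0.80. In the checkpoint BUB1B was higher by 0.95, MAD2L1 by 0.88 and BUB1 by 0.67, while BUB3, at 0.14 (SE 0.056, adjusted p = 0.0609), was not called. CENPA was the 1 gene called lower, at -0.031 (SE 0.0093, adjusted p = 0.0272) at the floor, and it was higher by 0.0037 after centring and by 0.0067 after quantile normalisation.

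Set against all 10 ovine arrays, the 5 bovine arrays were wholly above in 34 of the 43 genes, compared with 15.4% of named genes, and wholly below in 0. The other 9 overlapped: CDK1, CDC25C, BUB3, SGO1, CENPA, ZWINT, KIF18A, HMMR and ECT2. The ordering bovine, GW9662, vehicle held for the group means of 37 genes, with the same GW9662 arrays in both steps. The share of all named genes in that order was not counted. Against the GW9662 arrays in place of vehicle, 37 members were called higher and 0 lower, beside 22% of named genes called higher and 17.9% lower, and the median difference was 0.71. HMMR differed from GW9662 by -0.025 (SE 0.046, adjusted p = 0.673), with bovine arrays at 9.05, 9.19, 8.93, 9.05 and 9.09, a range that takes in all 5 GW9662 arrays.

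**Figure D5:**
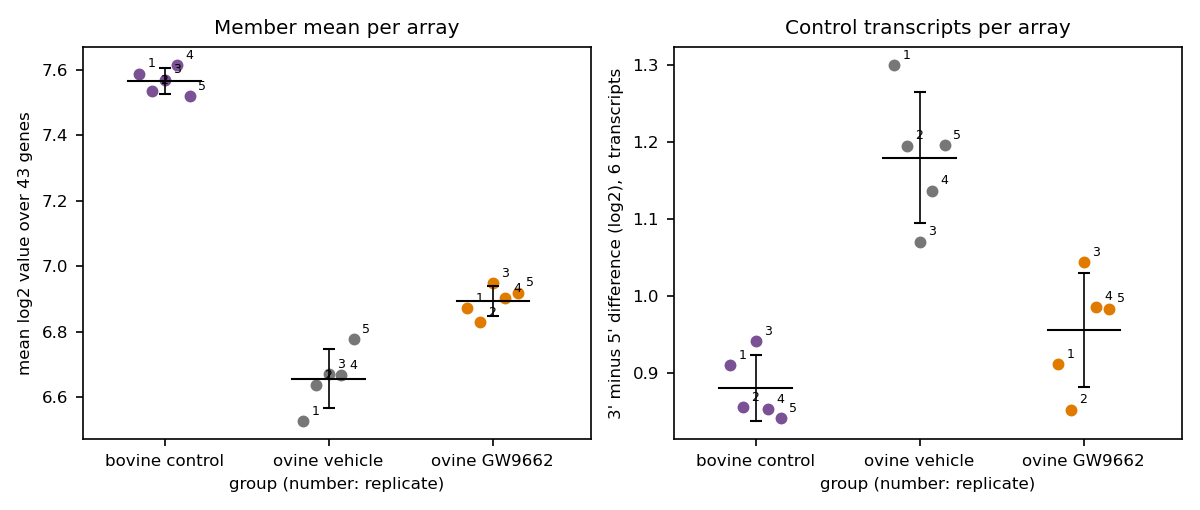
Mean log2 value of the 43 mitotic genes on each of the 15 arrays, and the 3′ minus 5′ gap of 6 control transcripts on the same arrays, by group. The member mean runs from 7.52 to 7.62 on bovine arrays, 6.83 to 6.95 with GW9662 and 6.53 to 6.78 with vehicle, while the 3′ minus 5′ difference is highest on the vehicle arrays.

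Averaged over the 43 genes, the bovine arrays read 7.57 ± 0.039, the GW9662 arrays 6.89 ± 0.045 and the vehicle arrays 6.66 ± 0.090 (SD, n = 5 each). No array of a group reached into the range of another. By median in place of mean the vehicle arrays ran from 6.92 to 7.28 and the GW9662 arrays from 7.26 to 7.44, which overlap.

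Outside the members, 14 of 22 further mitotic regulators were called higher in bovine cells and 1 lower, with a median of 0.54, and 19 of 30 replication and S phase genes were higher and 1 lower, with a median of 0.33. TROAP, which binds microtubules, was higher by 1.51 (SE 0.10, adjusted p = 5.38e-06), and CDCA3 by 1.34. Of the replication genes the helicase subunit MCM7 was higher by 0.94, the clamp PCNA by 0.46 and TYMS by 0.83. Of 12 genes listed for the anaphase-promoting complex 3 were higher, UBE2S among them, and 1 lower, with a median of 0.09, and of 4 cohesin genes 2 were higher. Among 9 inhibitors and arrest genes 3 were higher and 4 lower. These counts stand beside 21.9% of named genes called higher and 27.4% called lower, and the 3 of 12 genes for the anaphase-promoting complex are near the first of these shares. In the last list CDKN1A was lower, at -1.61 (SE 0.085, adjusted p = 8.95e-07).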

How the data were processed

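The deposited table holds log2 expression values of 24128 probe sets on 15 arrays, made by the authors with RMA, whose version is not given in the sources used here, per the submitters' processing notes. Since RMA subtracts background, gives all arrays 1 distribution by quantile normalisation and combines the probes of a set, values are relative and carry no depth, and the number of arrays limits the precision. The 112 control probe sets were left out, no filter was set on low values, and symbols came from the platform annotation given. Of the 24016 probe sets tested, 13292 had 1 symbol, 86 several and 10638 none.

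Under R 4.3.3, limma 3.58.1 (lmFit, then eBayes) was run for each comparison on the 10 arrays of its groups. P-values were adjusted by Benjamini-Hochberg over all 24016 probe sets, with 0.05 as the threshold. The fits were tested on simulated data. Genes named for GW9662 were those past the threshold, the 12 of smallest p and a fixed set of 22 of which the measured ones are given, and for the bovine and ovine controls up to 8 per direction of largest difference among called genes with no overlap, and the same fixed set. Other lists gave up to 3 genes of smallest p. Genes named beyond these, such as the members BUB3 and ECT2 and, with GW9662, CDKN1A, were chosen after their values were seen. The members and lists were chosen with earlier results of these data known. Alternatives were the scaling, a filter at a mean of 4, the variance model, array weights, the samples fitted, the replicate number, the 3′ to 5′ covariate, a minimum fold and each array left out.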

Additional observations from a re-analysis of the deposited data

Results flagged for a closer look

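Of 87 sets of 5 arrays, 3 held an array far from the other 4, with a gap over the group's whole range above the critical value of 0.71. The sets were, in each group, the 26 mitotic genes named, the dimmer called HMMR probe set, and the members' mean and median. Chance flags about 1 in 20 such groups, and the share here was 3.45%.

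CENPN read 7.17 on vehicle replicate 1, and the other 4 vehicle arrays lay between 7.37 and 7.44. CCNB2 read 5.52 on the same array, and the other 4 lay between 6.49 and 6.68. AURKB read 6.93 on GW9662 replicate 3, and the other 4 GW9662 arrays lay between 6.37 and 6.49.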

How the results depend on the processing

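With GW9662, the count over all probe sets, 44 in the reported fit (35 higher, 9 lower), was 67 after median centring (61 higher, 6 lower), 62 after quantile normalisation (38 higher, 24 lower), 83 with only probe sets of mean 4 or more, 26 with a trended, robust variance and 237 with all 15 arrays in one fit. It ran from 9 to 62 with each array left out. The 4 member probe sets became 7, 2 and 11 under the filter, the trended variance and the 15-array fit, and 1 to 5 with an array left out. The 3 member genes became 5, 1 and 9 there, 5 with array weights, and 1 to 4 with an array left out. With the 3′ to 5′ covariate 0 probe sets, 0 member probe sets and 0 member genes passed in limma, against 1312, 10 and 8 at an unadjusted p under 0.05. CCNA2 lost its call with the covariate and with the replicate block, and passed in 18 of 20 settings.

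The labels do not say whether replicate numbers pair the samples, and no pairing was visible in the values. After subtraction of the group means, the correlations of same-numbered vehicle and GW9662 arrays ran from -0.19 to 0.17. None of the 5 arrays correlated best with its own number, but so few arrays cannot exclude pairing. With the replicate block 0 probe sets, 0 member probe sets and 0 member genes passed with GW9662 in limma, against 3205, 29 and 22 at an unadjusted p under 0.05. In bovine control against ovine vehicle, 5396 probe sets and 38 of the 43 genes passed with the block.

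For bovine control against ovine vehicle the 10860 probe sets became 6455 after centring, 6802 after quantile normalisation, 5994 under the filter, 4019 with 1 probe set per named gene, 1601 with the covariate, 7052 with GW9662 arrays in place of vehicle and 1293 against a minimum fold of 1.5, and ran from 7335 to 10858 with an array left out. The 53 member probe sets became 19 with the covariate and 28 against the minimum fold, and the 40 member genes 16 and 22. The median difference of 0.95 was 0.71 against GW9662 arrays. With an array left out they ran from 51 to 54, from 38 to 41 and from 0.88 to 0.97, and the median with GW9662 from 0.21 to 0.33.

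The direction turned for CENPA with GW9662 after centring (0.022) and quantile normalisation (0.010), for BIRC5 after quantile normalisation (-0.013), and for CCNB2 (-0.15) and AURKA (-0.039) with the covariate. It also turned for CENPA between bovine control and ovine vehicle after centring (0.0037) and quantile normalisation (0.0067). The causes of these and the other changes between settings were not tested.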

Other observations

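The mitotic genes varied more among the vehicle arrays than among the GW9662 arrays. The median SD of the 43 genes was 0.17 with vehicle, 0.10 with GW9662 and 0.10 in the bovine group, and the vehicle SD was the larger in 33 of 43, 76.7%, against 73.2% of all named genes. The share was therefore close to that of the other genes on the arrays. Without vehicle replicate 1 the median vehicle SD was 0.14, and the vehicle SD was larger in 28 of 43 genes, 65.1%, against 60% of named genes.

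The probe sets of a gene did not all give the same size. Of 9 mitotic genes with at least 2 probe sets of mean 4 or more, the direction with GW9662 was shared in 8 and that between bovine control and ovine vehicle in 9. NCAPH, a condensin subunit, was the exception with GW9662, at -0.070 and 0.25.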
